A study of Mus musculus with 2 samples.

Results

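The genes described here are 10 genes of hepatocyte growth factor (HGF) signalling and plasminogen activation, chosen by name: Hgf, Mst1, Met, Plaur, Hgfac, St14, Plau, Plat, Spint1 and Spint2. The choice was made with earlier results of these data known. All 10 had a probe set on the array that is annotated to that gene alone, among 18193 genes so named, and together they had 16 such probe sets out of 34945. The series compared whole liver of BALB/c nude mice on the day of a 70% partial hepatectomy (day 0, labelled as the control) with whole liver 3 days after the operation (day 3, labelled as active regeneration). Each day was measured on 1 Affymetrix array. Both samples come from the same strain, which lacks a working thymus, both belong to the hepatectomy experiment, and no agent or transgene is labelled. Age, sex and the number of animals behind a sample are not stated in the labels, and a sham operation was not analysed here.

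With 1 array a day, no value has a replicate and no test between days could be made, so the differences below describe these 2 arrays and cannot be told apart from differences between animals. A signal is the MAS5 intensity of a probe set in linear units. Before a ratio was taken, any signal below 68.3, the median of the day 3 array and the higher median of the 2 arrays, was raised to that value, called the floor here. A ratio with a floored day is therefore a bound, written as at least that fold. Each gene was represented by its brightest probe set and called higher or lower at day 3 where the ratio reached 2-fold. Of all 12634 genes above the floor on at least 1 array, 12.9% were higher and 5.62% were lower, and the median log2 ratio was 0.08. The proliferation gene Mki67 had signals of 79.2 at day 0 and 4780 at day 3, the mitotic cyclin gene Ccnb2 of 24.2 and 2104, and all 8 hepatocyte markers, among them Alb with 59840 and 46192, lay far above the floor on both arrays. The poly-A spike RNAs dap, lys, phe and thr are each read by more than 1 pair of probe sets, so these pairs are not independent. For 8 of 8 pairs of poly-A spike probe sets, the ratio of 3' to 5' signal was larger at day 3, by 1.32 to 2.90 times. For the mouse transcript controls it was 2.09 times larger at day 3 for actin and 1.91 times for Gapdh, but 0.99 times for 18S RNA and 0.59 times for pyruvate carboxylase. The part of this imbalance in the ratios below was not tested.

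HGF is secreted as an inactive precursor, in liver mainly by stellate and endothelial cells, and is held in the matrix. Proteases such as the HGF activator (Hgfac), matriptase (St14), hepsin, urokinase (Plau) and tissue plasminogen activator (Plat) can cut it into the form that switches on the receptor tyrosine kinase MET on hepatocytes, and the Kunitz-type inhibitors encoded by Spint1 and Spint2 restrain the cutting. Urokinase held by its receptor (Plaur) also turns plasminogen into plasmin, which degrades fibrin and matrix. Mst1 encodes macrophage-stimulating protein, a relative of HGF that hepatocytes secrete and that acts on another receptor, encoded by Mst1r.

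In the regenerating liver sample, the ligand gene Hgf, the urokinase receptor gene Plaur and the protease genes Plat and St14 had at least 2-fold higher signal, while Hgfac, the protease named for activating HGF, was 3.01-fold lower. The receptor gene Met and the ligand gene Mst1 were lower by under 2-fold, and both inhibitor genes were higher by under 2-fold. Thus 4 of the 9 members above the floor were higher, against 12.9% of all genes, and 1 was lower, against 5.62%. The median log2 ratio of these 9 was 0.81. Plau lay under the floor on both arrays and has no ratio. Plat entered only through its day 3 signal, so a member with that pattern could count only as higher or under 2-fold. With genes above the floor on both arrays alone, 3 of 8 members were higher, against 11.8% of all 10760 such genes. The members fell into separate ranges of signal: 5 of the 9 lay in the tertile of genes with the lowest mean signal, where 17.1% of all genes were higher, and 4 of those 5 were higher. The other 4 lay in the tertile with the highest mean signal, where 7.34% of all genes were lower, and 1 of those 4 was lower.

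**Figure D1:**
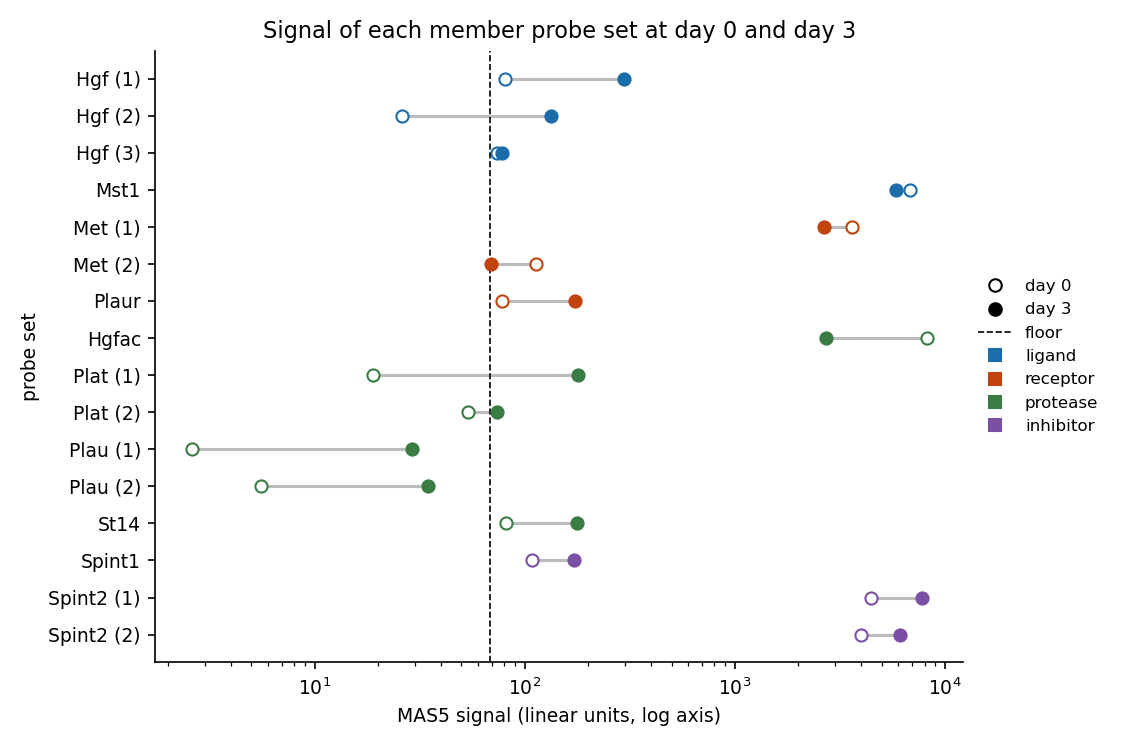
MAS5 signal (linear units on a log axis) of each of the 16 member probe sets at day 0 (open circles) and day 3 (filled circles), coloured by role, with the floor of 68.3 as a dashed line; numbers in brackets separate probe sets of a gene. Hgfac, Met, Mst1 and Spint2 each have a probe set at 2666 or more on both days, while Hgf, Plaur, Plat and St14 start at 81.9 or less on day 0, and both Plau probe sets stay left of the floor.

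Of the ligands, Hgf had a signal of 80.8 at day 0 and 298.2 at day 3 on its brightest probe set (1425379_at). The day 0 value sits just above the floor and the day 3 value well above it, and the ratio was 3.69-fold higher (log2 1.88). Only 474 of the 12634 genes had a larger ratio. A further probe set (1442884_at) went from 26.2 to 132.9, at least 1.95-fold higher against the floor. The remaining probe set (1451866_a_at) had 73.7 and 77.8, a log2 ratio of 0.08. The Hgf probe sets thus disagree in size: of the 3, 1 passed 2-fold, 1 was bounded just short of it and 1 stayed near its day 0 signal. Their mean log2 ratio was at least 0.97, since it holds that bound, so whether the mean passes 2-fold is not settled. Which part of the transcript each probe set reads was not analysed here.

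Mst1 had signals of 6798 at day 0 and 5823 at day 3 on its probe set. It was 1.17-fold lower (log2 −0.22), and the ratio turned to 0.08 when the arrays were scaled to the hybridisation spikes, so its direction is not settled. The gene of its receptor, Mst1r, had 5.33 at day 0 and 5.09 at day 3, under the floor on both arrays.

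Of the receptors, Met had signals of 3597 at day 0 and 2666 at day 3 on its bright probe set (1434447_at), 1.35-fold lower (log2 −0.43). Its dimmer probe set (1422990_at) went from 112.8 to 69.3, close to the floor, with a log2 ratio of −0.70. Both probe sets were lower at day 3 and neither reached 2-fold. The size is close to that of the hepatocyte markers, whose 8 log2 ratios ran from −0.53 to −0.33 on their brightest probe sets. Met stayed below 0 in all 10 alternative settings, from −0.58 to −0.13.

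Plaur, the receptor that holds urokinase at the cell surface, had 77.6 at day 0 and 173.8 at day 3, 2.24-fold higher (log2 1.16). It has 1 probe set, whose day 0 signal lies near the floor. It stayed past 2-fold in the 8 alternative settings that gave it a value, with log2 ratios from 1.002 to 1.35. It gave none with a floor at the 75th percentile, which lies above both signals, nor without shared probe sets, which removes its probe set.

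Of the proteases, Hgfac had a signal of 8174 at day 0 and 2716 at day 3. It was 3.01-fold lower (log2 −1.59), and 196 of the 12634 genes had a lower ratio. It rests on 1 probe set that was far above the floor on both arrays, and it was past 2-fold in all 10 alternative settings, from −1.74 to −1.29. The ratio lies below those of the 8 hepatocyte markers, which reached −0.53 on the brightest probe set of a gene and −0.80 on the other probe set of Fabp1.

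St14, the membrane protease matriptase, went the other way, from 81.9 at day 0 to 178.1 at day 3 (2.17-fold higher, log2 1.12). The call is marginal: under median centring, quantile normalisation, loess and the setting without a floor, the log2 ratio was 0.97, 0.94, 0.99 and 0.99. Plat, the tissue plasminogen activator, had 19.0 and 180.1 on its brightest probe set (1415806_at). The day 0 signal is under the floor, so Plat was at least 2.64-fold higher. The other Plat probe set (1458553_at) had 53.5 and 73.7, at least 1.08-fold higher. A floor at the 25th percentile makes this probe set the brightest, and the log2 ratio of Plat is then 0.46. Plau, urokinase itself, had 2.62 and 29.2 on 1 probe set (1422138_at) and 5.56 and 34.5 on the other (1422139_at). Both probe sets had the larger signal at day 3, yet all 4 signals stay under the floor, so no fold is given.

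Of the inhibitors, Spint1 had 108.3 at day 0 and 171.9 at day 3, 1.59-fold higher (log2 0.67). Spint2 had 4462 and 7807 on 1 probe set (1438968_x_at), 1.75-fold higher (log2 0.81), and 3996 and 6088 on the other (1451935_a_at), 1.52-fold higher (log2 0.61). The probe sets of Spint2 moved alike, but both are of the shared kind, so Spint2 had no value without shared probe sets. Neither inhibitor reached 2-fold. Spint2 passed it only after scaling to the hybridisation spikes (log2 1.11), which also raised the median of all genes to 0.37. At a threshold of 1.5-fold both inhibitors join the higher members, which then number 6 of 9. Of all 12634 genes, 3028 were higher at that threshold.

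**Figure D2:**
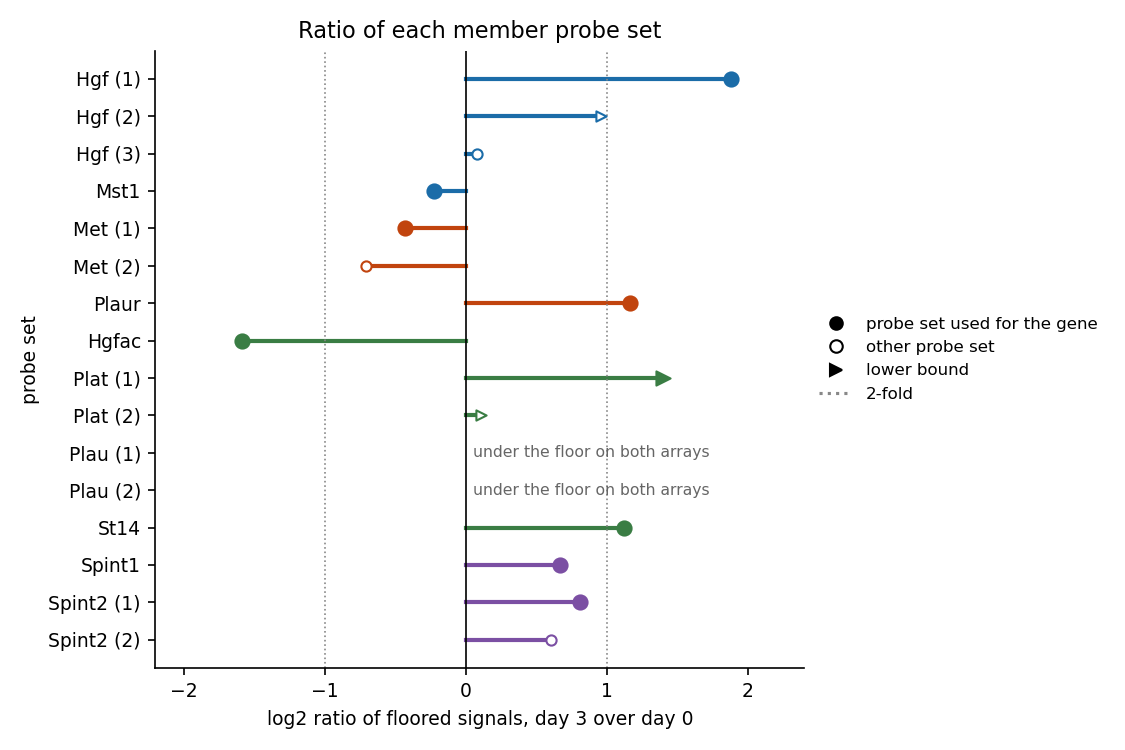
Log2 ratio of floored signals, day 3 over day 0, for each member probe set; filled symbols mark the probe set that represents the gene, triangles mark lower bounds, and dotted lines mark 2-fold. Hgf (1.88), Plat (at least 1.40), Plaur (1.16) and St14 (1.12) lie right of the upper line, Hgfac (−1.59) lies left of the lower one, and the probe sets of Hgf and of Plat differ in size within the gene.

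Log2 ratios of probe sets of the same gene, both above the floor on both arrays, differed with an SD of 0.44 per probe set over 4380 genes, and of 0.54 in the tertile with the lowest signal, which holds Hgf, Plaur, St14, Plat and Spint1. In the tertile with the highest signal the SD was 0.33. The log2 ratios of Hgf and Hgfac exceed these SDs by several times and those of Plaur and St14 by a smaller margin. Those of Mst1 and Met are of the same size as the SD. For Hgf the SD is a poor guide, since its probe sets above the floor on both arrays had log2 ratios of 1.88 and 0.08. This SD covers probe sets on the same arrays and says nothing of the spread between animals.

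RefSeq promoter windows on GRCm38.p6, 250 bases before to 50 after a start, were at hand for 7 of the 10 members, in 8 windows since Hgf has a pair of starts; St14, Plau and Plat have no entry. The windows were searched on both strands for TGANTCA, the core of the AP-1 site, which reads the same on either strand, and for TATAAA. Of the 7 members, 3 held TGANTCA, namely Plaur, Met and Spint1, as did 7.81% of all 32851 windows. None of the 7 members held TATAAA, which 13.6% of all windows did. The 250 bases upstream of the start are printed for the members past 2-fold that have an entry, with the first of the Hgf starts and with any TGANTCA match in capitals. They lie on the plus strand at chr5:16553245-16553494 (Hgf), chr5:35041259-35041508 (Hgfac) and chr7:24462233-24462482 (Plaur).

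Hgf: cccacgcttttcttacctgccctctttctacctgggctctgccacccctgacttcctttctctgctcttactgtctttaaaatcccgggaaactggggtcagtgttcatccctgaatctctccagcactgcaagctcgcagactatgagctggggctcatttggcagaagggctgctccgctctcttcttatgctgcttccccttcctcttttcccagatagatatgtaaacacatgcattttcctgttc
Hgfac: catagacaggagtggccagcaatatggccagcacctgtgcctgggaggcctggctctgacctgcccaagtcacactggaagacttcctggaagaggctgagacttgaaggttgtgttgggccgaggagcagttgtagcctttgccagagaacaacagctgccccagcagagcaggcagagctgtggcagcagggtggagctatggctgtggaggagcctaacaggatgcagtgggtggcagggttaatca
Plaur: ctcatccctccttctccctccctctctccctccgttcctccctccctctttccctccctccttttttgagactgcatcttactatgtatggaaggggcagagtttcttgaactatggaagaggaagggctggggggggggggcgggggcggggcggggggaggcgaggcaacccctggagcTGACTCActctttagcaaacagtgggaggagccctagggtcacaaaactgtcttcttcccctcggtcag

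The match in Plaur begins 69 bases before the start. The matches of the other members are shown with 10 bases on each side, again with the match in capitals, from the plus strand at chr6:17463893-17463919 (Met, beginning 54 bases before the start) and chr2:119237344-119237370 (Spint1, beginning 6 bases before the start).

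Met: gttgcccggcTGAGTCAcgggccgggc
Spint1: ccccgcgctcTGACTCAgtttcaccag

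Of the members with a match, Plaur was past 2-fold higher, Spint1 was under 2-fold higher and Met was under 2-fold lower. A match describes the letters in the window and shows no binding.

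The wider pathway was read from 6 lists by role. They were chosen with earlier results of these data known, and the shares below do not allow for this. The lists held 110 genes besides the members, of which 89 were above the floor. Of these, 19 (21.3%) were higher and 3 (3.37%) lower, beside 12.9% and 5.62% of all genes, and their median log2 ratio was 0.14 beside 0.08. Of the 19, 4 came from the list of plasminogen and its cell surface sites and 7 from that of plasmin targets and matrix proteases, while signalling downstream of MET gave 2. Some of the 89 passed the floor only at day 3 and so could not count as lower. With genes above the floor on both arrays alone, 16 of 82 were higher and 3 lower, against 11.8% and 5.74% of all 10760 such genes.

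Among the other proteases listed as activators of HGF, of macrophage-stimulating protein or of each other, Prss8, the membrane protease prostasin, was 3.18-fold lower (631.5 at day 0, 198.4 at day 3) and Klkb1, plasma prekallikrein, 2.45-fold lower (11611 and 4747, log2 −0.99 after spike scaling). Tmprss2, a transmembrane protease, was 3.07-fold higher (274.3 and 843.4), with its 4 probe sets between 1.56 and 1.91 in log2 ratio. Hpn, hepsin, was 1.11-fold lower, with 12265 and 11052, and the coagulation factors F11 and F12 were 1.13-fold and 1.55-fold lower. With Hgfac, St14 and Plat counted, 3 of 9 proteases of this list were higher and 3 lower, with a median of −0.18 that was 0.12 after spike scaling. None was higher when the floor was at the 75th percentile. After median centring, quantile normalisation or loess, 2 were higher and 3 lower. The same counts came with a floor at the 25th percentile, without a floor, above the floor on both arrays alone and with the mean over probe sets. As reported, the 3 that were lower are Hgfac and Klkb1, products of hepatocytes secreted to plasma, and the membrane protease Prss8. The 3 that were higher are Tmprss2, St14 and Plat.

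Of the inhibitors other than Spint1 and Spint2, Serpinf2, alpha 2-antiplasmin, had 17754 and 19358, and Serping1, the C1 inhibitor, 25649 and 24074. Serpina5, the protein C inhibitor, had 69.4 at day 0, just above the floor, and a day 3 signal under it. Its ratio is therefore only a bound, and a floor at the 25th percentile put it past 2-fold lower (log2 −1.03). None of the 5 inhibitors above the floor passed 2-fold as reported. Plasminogen itself, Plg, had 41952 at day 0 and 33562 at day 3, 1.25-fold lower. Others of this list were under 2-fold as well on the brightest probe set. Vtn, vitronectin, had a log2 ratio of −0.33. Hrg, the histidine-rich glycoprotein of plasma, was 1.62-fold lower (19793 and 12243). Lrp1, an endocytic receptor that clears protease complexes, stood at 0.39, while its other probe set had 1.06, past 2-fold higher. Anxa2, annexin A2, which binds plasminogen and its activator Plat on the cell surface, went from 608.6 to 7293, 11.98-fold higher, and its dimmer probe sets had log2 ratios down to 1.08. S100a10, the partner of annexin A2, went from 2687 to 10658, 3.97-fold higher, with probe sets from 1.15 to 3.26. The integrin subunit genes Itgb3 and Itgav, whose product binds vitronectin, were at least 2.31-fold and 2.30-fold higher. The plasminogen receptor gene Plgrkt was 1.86-fold higher. In all 5 of 10 genes of this list were higher, Plaur among them, and none was 2-fold lower (median 1.03). With a floor at the 75th percentile, 3 of 8 were higher and the median was 0.23.

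Of 31 signalling genes downstream of MET, 29 were under 2-fold, with a median of 0.07 that lay below 0 in 9 of the 10 alternative settings, from −0.12 to −0.01, and at 0.37 after spike scaling. The 2 higher ones were Src and Cbl. Cbl, a ubiquitin ligase that takes MET off the membrane, went from 259.5 to 704.7 (2.72-fold), and its least changed probe set had a log2 ratio of 0.08. Src, a kinase, was at least 2.80-fold higher on a probe set with 15.6 at day 0 and had −0.08 on its other probe set. The MET adaptor gene Gab1 had 566.2 and 655.8, Grb2 568.5 and 914.9, and Stat3 2629 and 3366, all under 2-fold on the brightest probe set. Other probe sets reached −1.04 for Gab1 and −0.07 for Grb2.

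Of 22 co-receptors and negative regulators of MET, 5 were higher and 1 lower (median 0.24). The balance depended on the setting: 3 were higher and 3 lower after median centring, 7 and 0 after spike scaling, and 2 and 0 with the mean over probe sets. Itga6, an integrin subunit, was 3.82-fold higher (190.5 and 728.5), and its other probe set stood at a log2 ratio of 0.01. Cd44, isoforms of which act as a co-receptor of MET, was 3.59-fold higher (161.6 and 580.6), and Plxnb1, a semaphorin receptor that pairs with MET, 2.99-fold (372.4 and 1114). Lrig3 was 2.09-fold lower, and its other probe sets reached up to −0.40 in log2 ratio. Dcn, decorin, a matrix proteoglycan that binds MET, was 1.26-fold higher.

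Of 18 plasmin targets and matrix proteases and their inhibitors, 7 were higher and none 2-fold lower (median 0.67). Timp1, an inhibitor of matrix metalloproteases, went from 45.1 to 422.3, at least 6.19-fold higher. The laminin chain genes Lama1 and Lamc1 were 3.48-fold and 3.20-fold higher, Mmp14, a membrane metalloprotease, 2.73-fold and Mmp2 2.27-fold. Vegfa, a growth factor that plasmin can free from matrix, was 1.83-fold lower (1534 and 838.7), and its lowest probe set had a log2 ratio of −1.38. The fibrinogen chain genes Fga, Fgb and Fgg were all within 1.08-fold of their day 0 signals. The list depended on the floor: the median was 0.12 with 1 of 9 genes higher at the 75th percentile and 1.15 with 11 of 21 higher at the 25th. Without a floor it was 1.09 with 10 of 18 higher. Of the 18, 4 passed the floor only at day 3 and so could not count as lower. With genes above the floor on both arrays alone, 6 of 14 were higher (median 0.50). The scaling mattered too: 4 of 18 were higher after quantile normalisation. Mmp2 was under 2-fold in that setting and after loess.

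**Figure D3:**
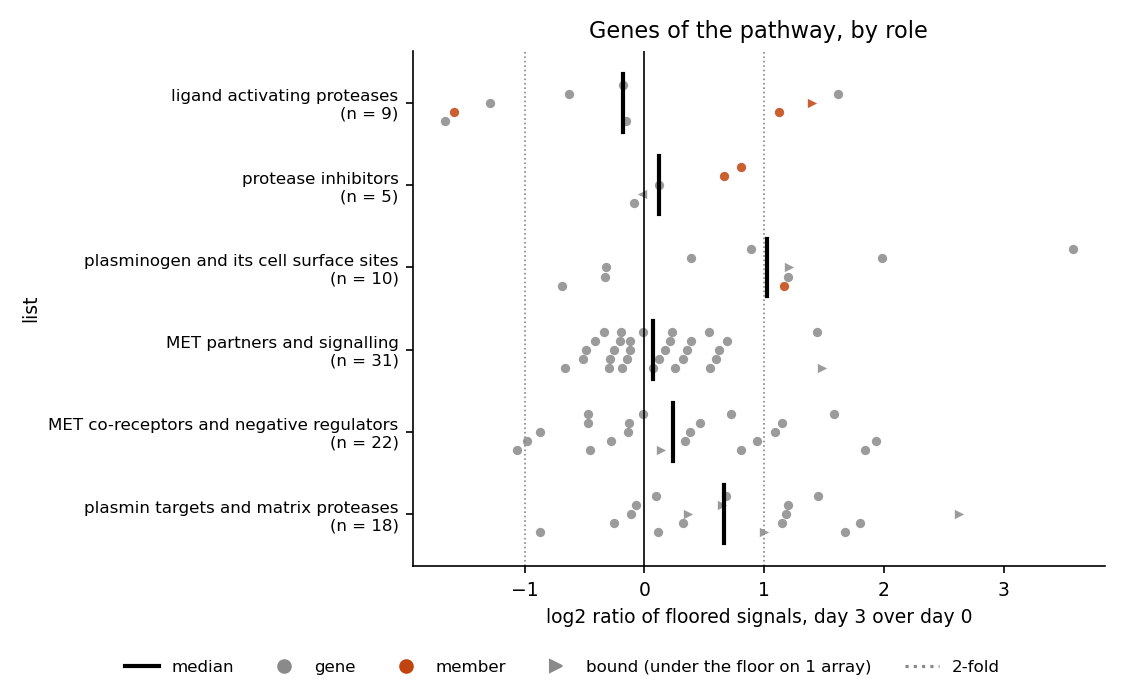
Log2 ratio, day 3 over day 0, of each gene of the 6 pathway lists that was above the floor on at least 1 array; members are red, triangles mark bounds, black bars mark medians and dotted lines mark 2-fold. The list of plasminogen and its cell surface sites has the highest median (1.03) and that of MET partners and signalling lies around 0 (0.07).

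In whole liver, more cells of a type and more RNA per cell cannot be told apart, and markers of the cells that make these proteins differed between the arrays too. Of 15 markers of stellate cells and fibroblasts, a known source of Hgf, 8 were higher and none was 2-fold lower, and their summed signal was 16345 at day 0 and 39845 at day 3. Col1a1 was at least 16.6-fold higher and Col3a1 10.6-fold, while Lrat, a marker of quiescent stellate cells, had 540.4 and 657.1. Ecm1 was 1.99-fold lower (3425 and 1720), past 2-fold after median centring, and Dpt, dermatopontin, was 1.20-fold lower. Of 14 endothelial markers, 1 was higher and none 2-fold lower, with summed signals of 11956 and 10273 and a median of 0.11, or −0.05 after quantile normalisation. The part of these cells in the Hgf ratio was not tested.

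Of 13 markers of Kupffer cells and macrophages, which can carry Plaur, 9 were higher and none 2-fold lower, with summed signals of 10667 and 28366. Marco, a scavenger receptor, was 9.35-fold higher, Lyz2 3.88-fold and C1qc 3.38-fold. The resident Kupffer cell marker Clec4f was 1.87-fold higher, and Ccr2, a monocyte marker, had 94.7 and 88.7. Of 10 neutrophil markers with a probe set, 5 lay under the floor on both arrays, among them Mpo and Cxcr2. Of the 5 analysed, 2 were higher, S100a8 (at least 8.57-fold) and S100a9 (4.98-fold), and 3 were under 2-fold. Elane had a log2 ratio of 0.34 and Csf3r of 0.28, while Ngp, under the floor at day 3, had −0.40 or lower. The median of the neutrophil markers was 0.34. Of 7 cholangiocyte markers, epithelial cells that are known to carry St14 and Spint1, 4 were higher, with summed signals of 515.9 and 1628. Krt7, Epcam and Cftr passed the floor only at day 3 and so could not count as lower; with genes above the floor on both arrays alone, 2 of 5 were higher (median 0.90). Krt19 was 3.31-fold higher, Cldn7 3.43-fold and Epcam at least 6.57-fold, while the other Epcam probe set had a log2 ratio of −0.06. The part of these cells in the Plaur, St14 and Spint1 ratios was not tested.

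The 8 hepatocyte markers had a median log2 ratio of −0.38, which became −0.05 after quantile normalisation, and summed signals of 413530 and 310399. Hgfac, Met and Mst1, genes that hepatocytes express, lay below 0 as these markers did, and among them Hgfac alone passed 2-fold. Of 8 lymphocyte markers with a probe set, 5 lay under the floor on both arrays, Cd3e and Cd3g among them, and none was 2-fold higher or lower. Platelet and mesothelial markers had medians of 0.01 and 0.24. Of 5 platelet markers, 1 was higher and none 2-fold lower. It was Pf4, 3.26-fold higher (144.4 and 471.5), with a log2 ratio of 0.15 when the floor was at the 75th percentile. When the floor was at the 75th percentile, the median was 0.75 for 12 markers of stellate cells and fibroblasts. It was 1.02 for 11 markers of Kupffer cells and macrophages. Only 1 cholangiocyte marker, Epcam, was then left, and its log2 ratio of 0.08 is a bound set by that floor.

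**Figure D4:**
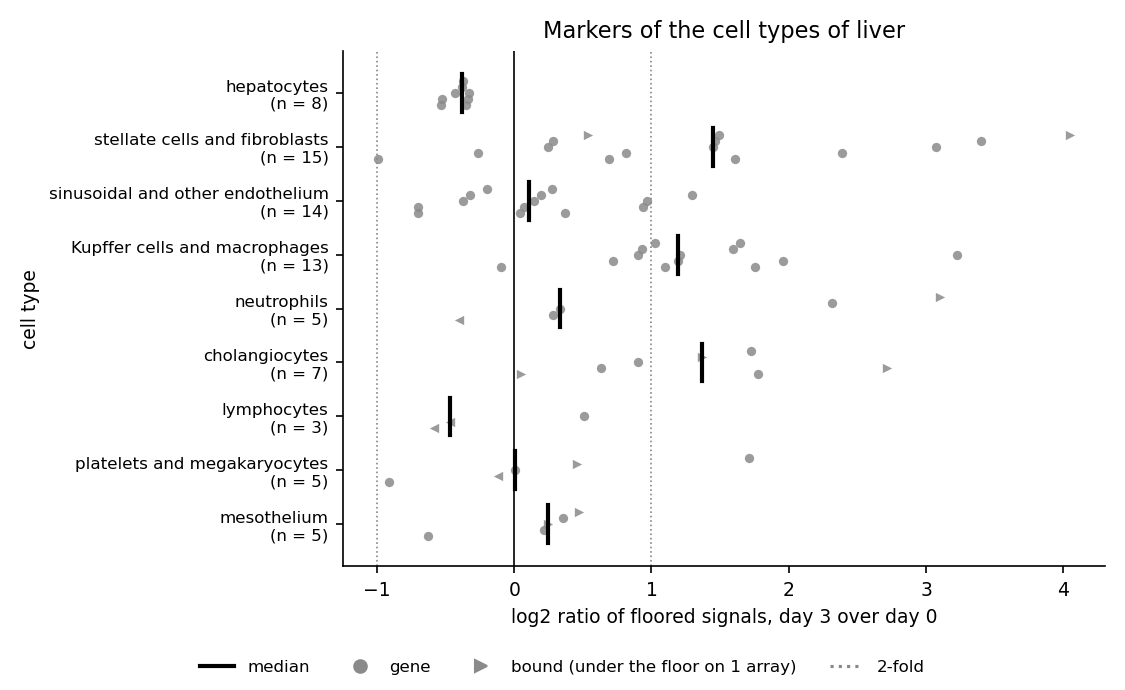
Log2 ratio, day 3 over day 0, of markers of 9 cell types that were above the floor on at least 1 array; triangles mark bounds, black bars mark medians and dotted lines mark 2-fold. Medians of stellate cells and fibroblasts (1.45), cholangiocytes (1.37) and Kupffer cells and macrophages (1.19) lie above 1, and that of hepatocytes lies at −0.38.

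Hgfac had the lowest ratio of the members in each of the 10 alternative settings. Plat and Hgf had the widest ranges of the 9 members, from 0.46 to 2.49 over 8 alternatives and from 0.97 to 2.13 over 9. The 0.97 is the mean over Hgf probe sets, which counts a bound at its floored value.

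**Figure D5:**
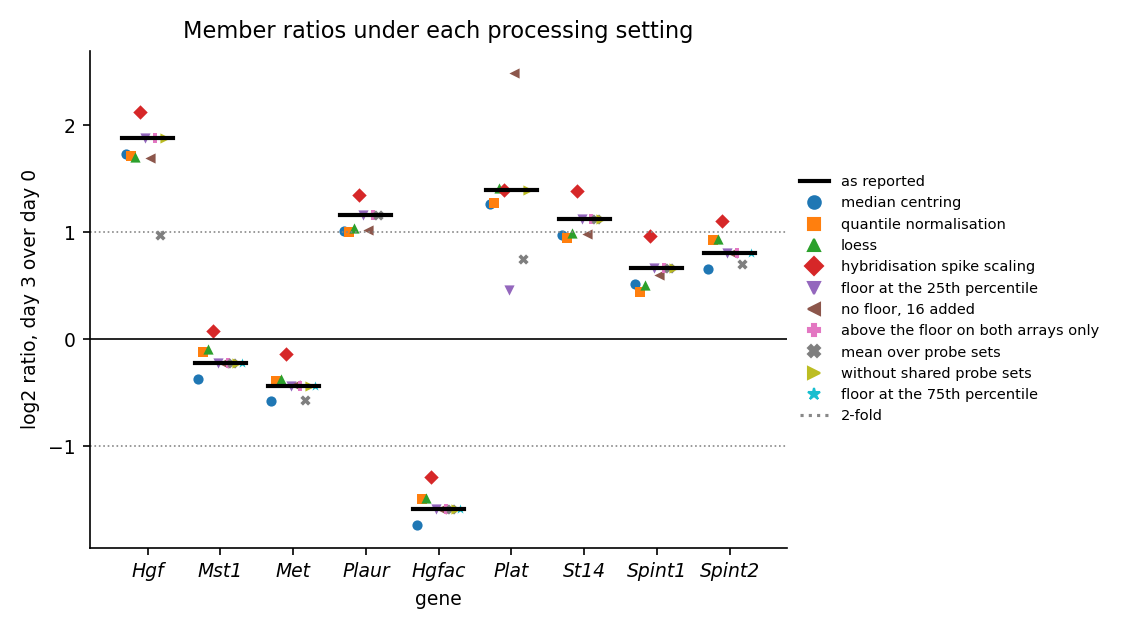
Log2 ratio, day 3 over day 0, of each of the 9 members above the floor, as reported (black bars) and under each alternative setting that gave a value (symbols); dotted lines mark 2-fold. Hgfac stays below −1 in all 10 settings and Plaur above 1 in all 8, while St14 falls on either side of 1. Hgf and Plat drop below 1 when probe sets are averaged, but these averages count bounds at their floored values and so are bounds too.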

How the data were processed

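RNA of whole mouse liver was labelled and hybridised to 1 Affymetrix array a day. The deposited values are probe set intensities on a linear scale, made by the authors with GCOS and MAS5 per the submitters' processing notes; no version or genome build is given in the sources used here. Trimmed means (2% off each end) were 500.0 on both arrays, so no further scaling was applied. The number of arrays limits the precision.

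Probe sets with 1 gene symbol in the array annotation were used (34945; 932 had several, 34741 matched a RefSeq gene by Entrez ID). The floor, 2-fold count and brightest probe set were computed with Python 3.11.15, and the steps were checked on simulated data. That check planted large ratios in genes far above the floor only. It does not cover signals near the floor or ratios near 2-fold. All 10 members are named whatever their values; of each pathway list up to 3 highest and 3 lowest genes past 2-fold and of each marker list up to 3 genes were named by rule, and others in the text were chosen after their values were seen. The members and lists were chosen with earlier results of these data known. Alternatives were 4 scalings (median, quantile, loess with fraction 0.3 fitted above the floor, a range chosen after seeing the data, hybridisation spikes), a floor at the 25th or the 75th percentile, 16 added in place of a floor, genes above the floor on both arrays, the mean over probe sets, no shared probe sets (IDs with _a_, _s_ or _x_), and thresholds of 1.5-fold and 4-fold. No protein sequences were used.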

Additional observations from a re-analysis of the deposited data

How the results depend on the processing

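No paired analysis was possible because each day has 1 array and the labels carry no replicate numbers. Beside 4 members higher and 1 lower, the higher members numbered 2 with the mean over probe sets, which counts bounds at their floored values. They numbered 0 with a floor at the 75th percentile, where 4 members were left, and at 4-fold both counts were 0. In the other settings 3 to 6 were higher and 1 lower. For the other pathway genes (19 higher, 3 lower), higher genes numbered 7 with a floor at the 75th percentile, 29 at 1.5-fold and 2 at 4-fold, and lower genes 6 after median centring, 1 after spike scaling, 1 with a floor at the 75th percentile, 9 at 1.5-fold and 0 at 4-fold. For all genes (1625 higher, 710 lower), higher genes numbered 574 with a floor at the 75th percentile, 3028 at 1.5-fold and 413 at 4-fold, and lower genes 373 after spike scaling, 1834 and 406 with a floor at the 25th and at the 75th percentile, 1797 at 1.5-fold and 96 at 4-fold. Higher genes made up 69.6% of genes past 2-fold, 57.7% after median centring, 58.4% after quantile normalisation and 86.7% after spike scaling, and the median of all genes was −0.05, 0.00 and 0.37 in these. Plau passed the floor only at the 25th percentile, with a log2 ratio of 0.80. Signals near the floor limit Hgf, Plaur, St14, Plat and Spint1.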
